A study of Mus musculus with 26 samples.

Results

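Bipolar cells are the interneurons that carry signals of rods and cones to the amacrine and ganglion cells of the inner retina. The 8 genes described here, Vsx1, Grm6, Trpm1, Pcp2, Prkca, Cabp5, Gng13 and Otx2, are commonly used to mark bipolar cells or some of their types, and were chosen by symbol among the 54532 genes of a mouse RNA-seq table. All 8 were found, each as 1 Ensembl gene. The study immunoprecipitated (IP) RNA of astrocytes and sequenced 26 libraries, all from untreated animals at day 0. They comprised 6 retina IP libraries, 6 retina input libraries taken without the precipitation, 7 IP libraries of the optic nerve head (ONH), where ganglion cell axons leave the eye, and 7 IP libraries of the myelinated optic nerve proper (ONP). Replicates 1 to 6 of ONH and ONP formed sequencing batch 1 and came from an earlier study of the same group; replicate 7 of each, here called the bridging libraries, was prepared with the 12 retinal libraries in batch 2. Strain, genotype, age, sex and the target of the precipitation are not given in the sources used here. The labels do not say whether libraries came from separate animals, and a p-value therefore reflects only how these libraries varied, which may be technical.

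In the dark, photoreceptors release glutamate, and ON bipolar cells read it with the metabotropic receptor mGluR6. The receptor acts through the G protein Go to keep the cation channel TRPM1 closed, and light, which lowers glutamate, lets the channel open. Grm6 encodes mGluR6 and Trpm1 the channel, while Pcp2 (a modulator of Go) and Gng13 (a G protein gamma subunit) act along the same cascade. Prkca encodes protein kinase C alpha, the common stain of rod bipolar cells, and Cabp5 a calcium-binding protein of rod bipolar and some cone bipolar types. Otx2 encodes a homeodomain factor needed for photoreceptor and bipolar fates, and Vsx1 a homeodomain factor of some cone bipolar types. Several of these genes are not limited to bipolar cells: Otx2 is also made in photoreceptors and in the retinal pigment epithelium (RPE), Trpm1 in pigment cells such as melanocytes and RPE, and Prkca in many tissues.

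Promoter windows of Cabp5, Trpm1 and Otx2 are shown, and they are the windows that held a match to the motifs named below. The windows of all other members held neither motif, also those of Gng13, Pcp2 and Grm6, which were likewise called higher in ONH than in ONP. Otx2 is itself a factor whose family binds TAATCC, and Trpm1 has separate starts. Windows of 250 bases before to 50 after each start came from RefSeq (GRCm38.p6) and covered all 8 genes with 16 windows. Each was searched on both strands for TAATCC or its reverse complement and for CACGTG, the E-box letters bound by pigment cell factors of the MITF family. Matches are in capitals.
Cabp5 (chr7:13397905-13398204, plus strand): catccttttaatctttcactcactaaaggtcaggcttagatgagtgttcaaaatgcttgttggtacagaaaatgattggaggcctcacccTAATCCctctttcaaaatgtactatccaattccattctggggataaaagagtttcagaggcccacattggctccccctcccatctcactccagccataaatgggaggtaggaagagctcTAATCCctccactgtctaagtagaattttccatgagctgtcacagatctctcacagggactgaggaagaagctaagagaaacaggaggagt
Trpm1, upstream start (chr7:64153585-64153884, plus strand): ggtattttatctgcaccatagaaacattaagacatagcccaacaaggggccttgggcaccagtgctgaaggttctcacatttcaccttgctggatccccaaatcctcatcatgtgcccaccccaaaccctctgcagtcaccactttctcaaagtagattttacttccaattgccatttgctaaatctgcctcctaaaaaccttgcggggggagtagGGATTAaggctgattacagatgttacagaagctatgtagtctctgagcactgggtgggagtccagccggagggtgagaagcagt
Trpm1, downstream start (chr7:64185209-64185508, plus strand): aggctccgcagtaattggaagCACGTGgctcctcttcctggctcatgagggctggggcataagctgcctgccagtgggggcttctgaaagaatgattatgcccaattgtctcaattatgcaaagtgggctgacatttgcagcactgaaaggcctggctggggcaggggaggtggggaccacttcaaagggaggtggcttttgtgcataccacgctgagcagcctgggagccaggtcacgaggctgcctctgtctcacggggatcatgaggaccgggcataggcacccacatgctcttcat
Otx2, 1 of 4 starts (chr14:48665060-48665359, minus strand): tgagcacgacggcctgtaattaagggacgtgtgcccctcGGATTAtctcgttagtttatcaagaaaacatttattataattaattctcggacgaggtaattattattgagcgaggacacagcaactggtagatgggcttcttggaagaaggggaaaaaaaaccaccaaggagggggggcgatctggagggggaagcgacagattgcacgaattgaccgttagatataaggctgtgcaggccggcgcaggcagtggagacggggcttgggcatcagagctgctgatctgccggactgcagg
Cabp5 held TAATCC at 2 places, and the upstream Trpm1 window and the Otx2 window shown held 1 each. These were the 3 windows of 16 with that motif, which was present in 7.06% of the 32817 promoter windows in the table. CACGTG was found in 1 window, that of the downstream Trpm1 start, against 7.15% of all windows. The motifs do not overlap each other. Counts per gene do not tell the 2 Trpm1 starts or the 4 Otx2 starts apart, and a match in letters is a description, not a binding site.

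Total counts per library were 14703195 to 24966236 in retina IP, 11164619 to 18417001 in retina input, 14812762 to 26407745 in ONH IP and 14051088 to 27431026 in ONP IP. Levels are in CPM, counts scaled to library size with TMM factors. Fewer genes were detected in retina input replicates 1 and 2 (16782 and 17082) than in replicates 3 to 6 (19835 to 20702), and the bridging ONH library had counts for 23959, the most of all 26. Astrocyte marker genes (10), with Pax8, Pax2 and Gfap among them, summed to 512 to 2211 CPM in retina input. In retina IP they summed to 9591 to 13878 CPM in replicates 2 to 4 and to 1681 to 3043 CPM in replicates 1, 5 and 6. Pax8 stood at 253 to 377 CPM in replicates 2 to 4, at 30.2 to 42.6 CPM in the others, and at 7.27 to 34.2 CPM in retina input. Retina IP means and tests below join these unlike sets of libraries, so the lack of a call does not show that a gene was unchanged. The bridging ONH library stood apart in retinal genes: 12 rod genes summed to 50181 CPM there, against 104 to 865 CPM in ONH replicates 1 to 6, 693 to 2873 CPM in retina IP and 1108 to 13058 CPM in retina input. For this reason the bridging libraries are given separately from batch 1 throughout.

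The receptor gene Grm6 (ENSMUSG00000000617, chr11:50850685-50866208, GRCm38) was low but present in all 12 retinal libraries. It ran from 1.96 to 3.63 CPM with a median of 3.10 in retina IP, against 0.579 to 8.35 CPM with a median of 3.52 in retina input. In ONH replicates 1 to 6 it had counts in 2 libraries, at 0.109 and 0.740 CPM, and in ONP replicates 1 to 6 it had 0 counts in every library. A count of 0 over those 6 libraries allows up to 0.0279 CPM, a limit that covers counting error only. The bridging libraries held 29.6 CPM in ONH and 0.865 CPM in ONP. Every retina IP library was thus above every batch 1 nerve library, and the bridging ONH library was above all 25 others.

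Trpm1 (ENSMUSG00000030523, chr7:64153835-64269775), the channel gene, did not follow its receptor in the nerve head. In retina IP it ran from 3.33 to 17.1 CPM with a median of 13.4, and in retina input from 9.46 to 21.8 CPM with a median of 15.1. ONH replicates 1 to 6 held 4.57 to 14.2 CPM with a median of 12.7, inside the range of retina IP. ONP replicates 1 to 6 held 0 to 2.34 CPM with a median of 0.408, below every ONH library. The bridging libraries held 63.5 CPM in ONH and 0.648 CPM in ONP. Levels of retina IP, retina input and batch 1 ONH overlapped, and only ONP lay apart from the 3 of them.

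Pcp2 (ENSMUSG00000004630, chr8:3623371-3625545) and Gng13 (ENSMUSG00000025739, chr17:25717171-25719406) varied most among the inputs. Pcp2 ran from 7.43 to 12.9 CPM with a median of 9.41 in retina IP. In retina input it stood at 99.4 and 191.8 CPM in replicates 1 and 2 and at 17.8 to 28.1 CPM in the other 4. Gng13 ran from 2.16 to 5.18 CPM in retina IP, and stood at 49.7 and 68.7 CPM in input replicates 1 and 2 and at 6.34 to 10.5 CPM in the other 4. For both genes all retina IP libraries were below all inputs. In ONH replicates 1 to 6 Pcp2 did not exceed 0.431 CPM and Gng13 did not exceed 0.335 CPM. In ONP replicates 1 to 6 Pcp2 had 2 counts, both in replicate 5, and Gng13 had none. The bridging ONH library held 35.3 CPM of Pcp2 and 14.6 CPM of Gng13, and the bridging ONP library held 0.288 CPM of each.

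These values of Pcp2 and Gng13 carry an uncertainty of annotation. Of the 1828 exon bases of Pcp2, 941 (51.5%) also belong to exons of Pet100, a mitochondrial assembly factor gene on the other strand, and of the 773 exon bases of Gng13, 399 (51.6%) belong to exons of Chtf18, a clamp loader gene. Whether the counting used strand is not given in the sources used here. Without strand, reads that lie within the shared bases could come from either gene of a pair. Pet100 stood at 9.80 to 20.5 CPM in retina IP, against 13.6 to 141.7 CPM in retina input, with 130.3 and 141.7 CPM in input replicates 1 and 2. In ONH replicates 1 to 6 Pet100 held 5.89 to 8.70 CPM while Pcp2 was at or near 0. Chtf18 stood at 1.86 to 5.19 CPM in retina IP and at 0 to 4.55 CPM in retina input, with 4.55 and 0 CPM in input replicates 1 and 2, so it did not share the high values of Gng13. How far Pet100 enters the values of Pcp2 was not tested.

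Cabp5 (ENSMUSG00000005649, chr7:13398132-13408887) ran from 3.80 to 14.03 CPM with a median of 6.88 in retina IP, against 0.331 to 31.1 CPM with a median of 14.1 in retina input. Its ONH values in replicates 1 to 6 were 3.67, 0, 0.418, 1.87, 0 and 0.972 CPM, and it had 0 counts in all 6 batch 1 ONP libraries. The bridging libraries held 52.7 CPM in ONH and 0.793 CPM in ONP. As for Grm6, retina IP and input overlapped, and every retina IP library was above every batch 1 nerve library.

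Prkca (ENSMUSG00000050965, chr11:107933387-108343928) was present in every library, at 8.43 to 66.8 CPM. It averaged 42.5 ± 15.1 CPM in retina IP, against 36.2 ± 17.3 CPM in retina input (SD, n = 6 each). Batch 1 averages were 22.1 ± 5.89 CPM in ONH and 28.6 ± 5.00 CPM in ONP (SD, n = 6 each), and the bridging libraries held 66.8 CPM in ONH and 28.3 CPM in ONP. The ranges of all 4 groups overlapped. Across the 12 retinal libraries Prkca was the member that ran against the rest: the Pearson correlation of its log2(CPM + 1) with the mean of the other 7 was -0.60, while those of the other members with the mean of the rest lay between 0.23 and 0.59. These libraries share a batch and differ in how many genes they detected, and the correlations are given as a description.

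Otx2 (ENSMUSG00000021848, chr14:48657677-48673819) ran from 1.67 to 10.03 CPM with a median of 6.16 in retina IP, against 1.65 to 28.3 CPM with a median of 10.1 in retina input. ONH replicates 1 to 6 held 0.914 to 11.6 CPM with a median of 5.54, and ONP replicates 1 to 6 held 0 to 0.658 CPM. The bridging ONH library held 111.7 CPM, the highest of the 26, and the bridging ONP library 0.504 CPM. Like Trpm1, Otx2 overlapped between retina and ONH and was lower in every ONP library than in every ONH library. Vsx1 (ENSMUSG00000033080, chr2:150680702-150689360) was the least informative member, with 0.634 to 2.01 CPM in retina IP and 0 to 3.08 CPM in retina input. It held 0 to 1.06 CPM in ONH replicates 1 to 6 and 0.0556 to 2.65 CPM in ONP replicates 1 to 6, and these 4 ranges overlapped. The bridging libraries held 7.04 CPM of Vsx1 in ONH and 0.648 CPM in ONP.

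**Figure D1:**
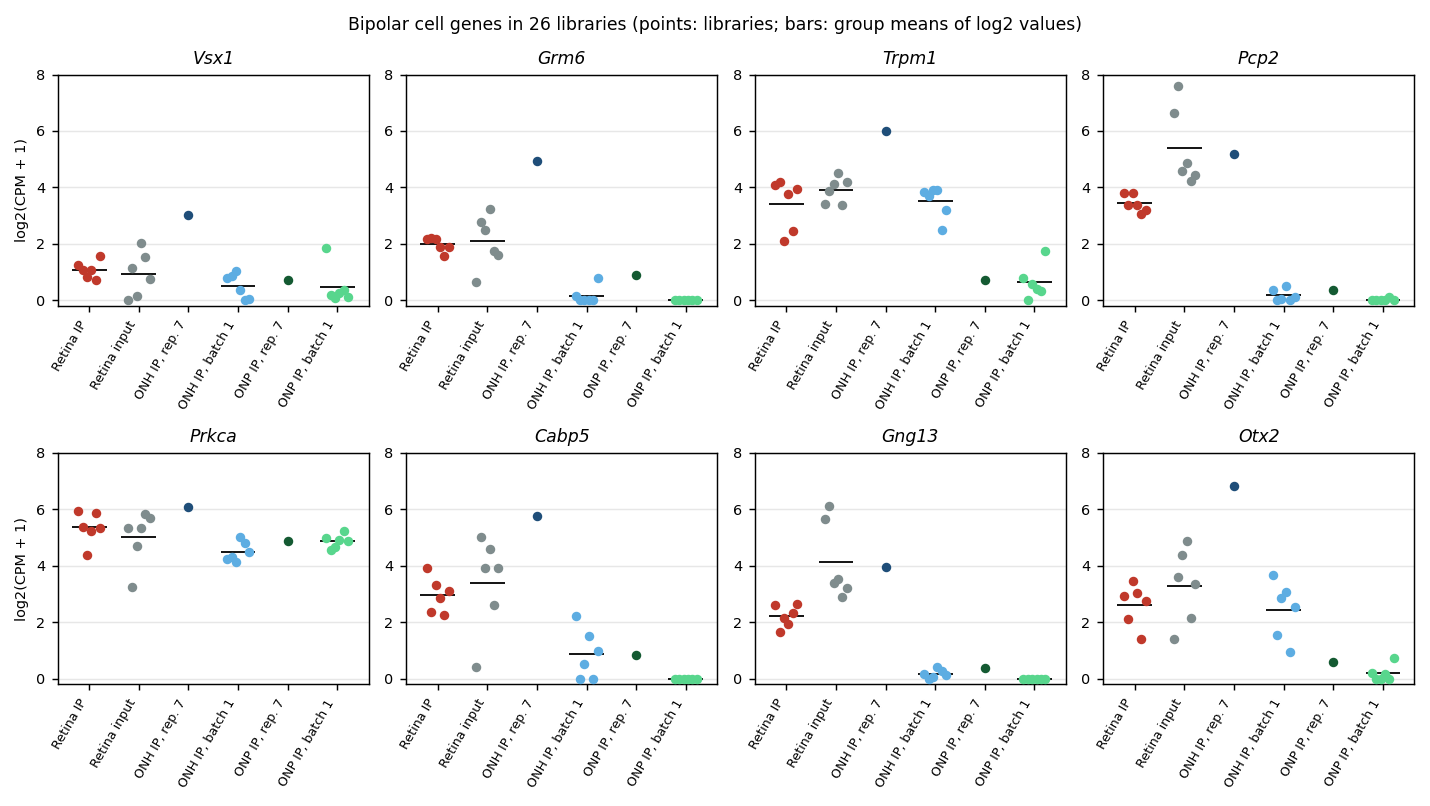
Level of each bipolar cell gene as log2(CPM + 1), 1 point per library, with black bars at the group means of replicates 1 to 6. The bridging ONH library (ONH IP, rep. 7) is the highest point for 6 of the 8 genes, and for Pcp2 and Gng13 the 2 highest inputs lie above it.

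Compared per length, as the mean CPM per kilobase of annotated exons, the order within retina IP was Pcp2 (5.49), Gng13 (4.89), Prkca (4.73), Cabp5 (2.95), Otx2 (1.36), Trpm1 (0.767), Grm6 (0.553) and Vsx1 (0.309). In retina input Pcp2 (34.7) and Gng13 (33.0) led by a wider margin, and Cabp5 (5.79) stood above Prkca (4.03). Without input replicates 1 and 2 the input means were 12.2 for Pcp2, 11.2 for Gng13, 5.56 for Cabp5 and 4.72 for Prkca. In the bridging ONH library the order was another one, with Otx2 (26.5), Cabp5 (20.9), Pcp2 (19.3) and Gng13 (18.9) ahead of Prkca (7.43).

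The first comparison set retina IP against retina input and asked what the precipitation of astrocyte RNA did to the genes of another retinal cell. Pcp2 and Gng13 stood lower in every retina IP library than in any input but did not pass the test, and the estimates of the other 6 genes lay between -0.98 and 0.31 on the log2 scale. edgeR's quasi-likelihood test called 0 of the 8 higher and 0 lower at a Benjamini-Hochberg adjusted p under 0.05, where 0% of the 15181 genes tested were called in either direction. At an unadjusted p under 0.05 there were 2 members and 22.1% of all genes tested, and DESeq2 called 2 members and 7.27% of the genes tested lower. Pcp2 averaged 10.03 ± 2.34 CPM in retina IP, against 63.5 ± 70.1 CPM in retina input (SD, n = 6 each), a log2 fold change of -2.56 (SE 0.583, edgeR adjusted p = 0.0570). Gng13 averaged 3.78 ± 1.21 CPM in retina IP, against 25.5 ± 26.8 CPM in retina input (SD, n = 6 each), a log2 fold change of -2.66 (SE 0.612, edgeR adjusted p = 0.0570). They were the only members whose groups did not overlap, against 2.9% of genes tested with every retina IP library below every input. Both groups are bulk RNA of the retina and differ by the precipitation step. How much RNA of bipolar cells was carried through that step was not tested. Within either group, the number of cells and the RNA per cell cannot be told apart.

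The size of both differences rested on 2 inputs. Without input replicates 1 and 2 the log2 fold changes were -1.08 for Pcp2 (edgeR adjusted p = 0.0788) and -1.15 for Gng13 (edgeR adjusted p = 0.0934). Without replicate 1 of retina IP both genes were called lower (edgeR adjusted p = 0.0497 and 0.0498), as were 0.262% of all genes tested. So they were with DESeq2 (adjusted p = 0.000407 and 0.000377) and with no filter on low counts (edgeR adjusted p = 0.0449 and 0.0461), where 0.147% of all genes were called lower. The remaining members had log2 fold changes of -0.98 (Otx2, SE 0.613), -0.89 (Cabp5, SE 0.673), -0.31 (Grm6, SE 0.542), -0.28 (Trpm1, SE 0.419), 0.07 (Vsx1, SE 0.816) and 0.31 (Prkca, SE 0.389), with edgeR adjusted p from 0.380 to 0.973. The median over the 8 was -0.60, against 0.02 over all genes tested. For rod genes it was -1.37, with 12 of 12 estimates negative and 0 called, and for astrocyte genes 2.65, with 10 of 10 positive and 0 called.

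Other genes of bipolar cells showed no call either in this comparison. Of the other genes of the mGluR6 cascade, 8 of 9 were tested, 6 with a negative and 2 with a positive estimate (median -0.18). Gnao1, the alpha subunit of Go, averaged 223.6 ± 126.3 CPM in retina IP, against 282.3 ± 93.6 CPM in retina input (SD, n = 6 each), with a log2 fold change of -0.27. Gnb3, a beta subunit used by ON bipolar cells and cones, averaged 26.9 ± 4.21 CPM in retina IP, against 41.8 ± 20.3 CPM in retina input (-0.55). The 12 transcription factors of bipolar cells had a median of -0.51, and the 11 tested of 12 receptor, calcium-binding and adhesion genes a median of -0.34. Isl1, a LIM homeodomain factor of ON bipolar, amacrine and ganglion cells, averaged 134.4 ± 90.8 CPM in retina IP, against 189.7 ± 17.9 CPM in retina input (-0.44). Its retina IP values were 33.1 to 69.2 CPM in replicates 2 to 4 and 210.8 to 227.3 CPM in replicates 1, 5 and 6. The carbonic anhydrase-related gene Car8 had an estimate of -1.16 (edgeR adjusted p = 0.0673), at 8.12 ± 2.29 CPM in retina IP, against 19.3 ± 6.42 CPM in retina input.

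**Figure D2:**
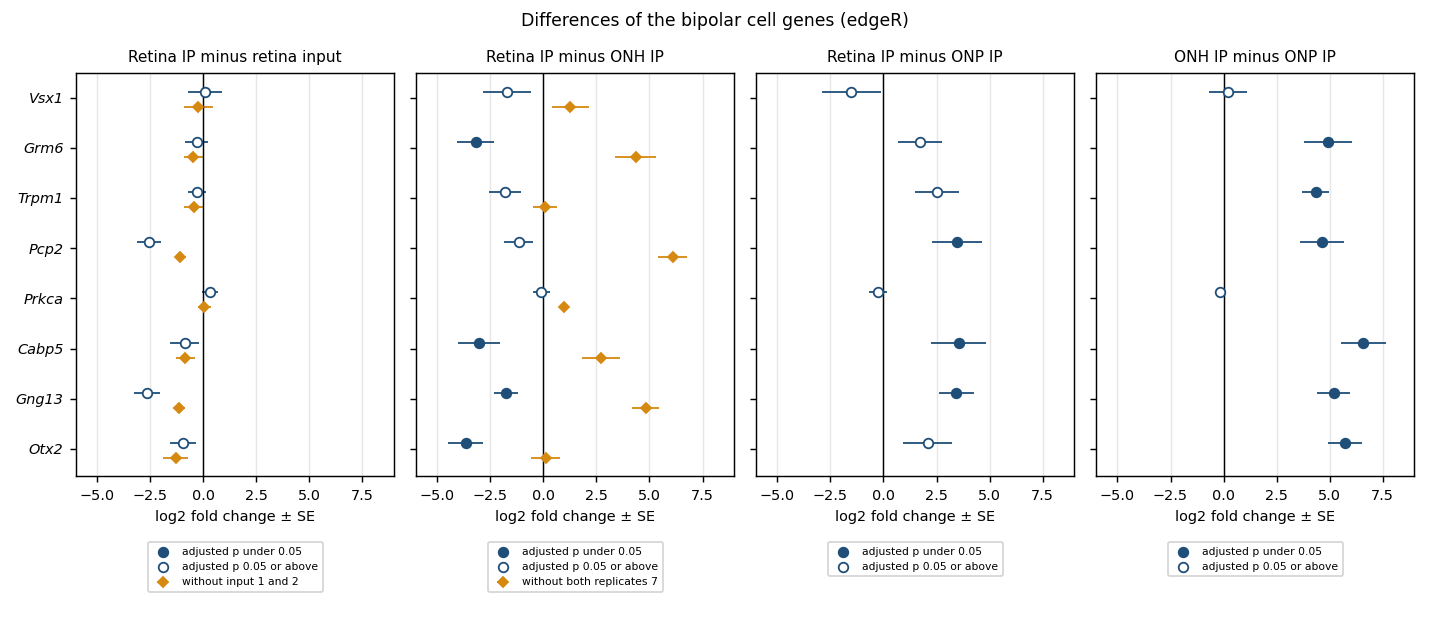
Log2 fold changes of the 8 genes with their standard errors in 4 comparisons (edgeR). Filled circles had an adjusted p under 0.05; diamonds give the same comparison without input replicates 1 and 2, or without both bridging libraries and without a batch term. In the second panel all 8 genes lie to the left of 0 with the bridging libraries, and none does without them.

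The second comparison set retina IP against ONH IP, to ask how retinal astrocyte RNA differs from that of the nerve head. Its outcome for the bipolar genes turned on the bridging libraries. With batch as a term, over the 20 IP libraries, edgeR called 4 members lower in retina and 0 higher, where 21.1% of 16355 genes were called lower and 12.7% higher. The 4 were Otx2 (log2 fold change -3.67, SE 0.810, adjusted p = 0.00183), Grm6 (-3.20, SE 0.875, adjusted p = 0.00814), Cabp5 (-3.05, SE 0.979, adjusted p = 0.0210) and Gng13 (-1.76, SE 0.574, adjusted p = 0.0228). Trpm1 (-1.82, adjusted p = 0.0687), Vsx1 (-1.72, adjusted p = 0.249), Pcp2 (-1.17, adjusted p = 0.195) and Prkca (-0.09, adjusted p = 0.871) did not pass. The median over the 8 was -1.79, against -0.13 over all genes tested.

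The libraries of batch 1 lay the other way. Every retina IP library was above every batch 1 ONH library for Grm6, Pcp2, Cabp5 and Gng13, against 15.3% of genes tested, and no member lay wholly below. These genes passed the low-count filter only through the retina IP libraries, so shares of all genes are not a like background for them. Without both bridging libraries, and so without a batch term, edgeR called 5 members higher in retina and 0 lower, where 29.3% of genes tested were called higher and 29.4% lower. The 5 were Pcp2 (6.10, adjusted p = 5.51e-07), Gng13 (4.83, adjusted p = 1.88e-05), Grm6 (4.34, adjusted p = 0.00155), Cabp5 (2.72, adjusted p = 0.0165) and Prkca (0.99, adjusted p = 0.00145). In that fit batch and region cannot be told apart. Trpm1 (0.076) and Otx2 (0.11) were near 0 there. Within batch 2 alone, where ONH is a single library assumed to vary like retina IP, 3 members were called lower (Grm6, Cabp5 and Otx2), as were 3.42% of genes tested.

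Leaving out the bridging ONH library alone ended all 4 calls, with edgeR adjusted p of 0.262 for Grm6, 0.166 for Cabp5, 0.320 for Gng13 and 0.466 for Otx2, while 15.3% of genes tested were called lower. Leaving out the bridging ONP library, which also informs the batch term, ended those of Grm6 (adjusted p = 0.0542), Cabp5 (adjusted p = 0.119) and Gng13 (adjusted p = 0.106) and brought in Trpm1 (adjusted p = 0.0477), with 13.9% of genes tested called lower. Pcp2 was called lower without ONP replicate 5 (adjusted p = 0.0435), and Trpm1 without ONP replicate 6 (adjusted p = 0.0204).

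The bridging ONH library was the highest of the 26 for 6 of the 8 members, while 5.1% of the 17173 genes kept were highest there. Over the mean of ONH replicates 1 to 6 its level was 254 times as high for Pcp2, 209 times for Grm6, 111 times for Gng13, 45.7 times for Cabp5 and 20.4 times for Otx2, but 5.74 times for Trpm1 and 3.02 times for Prkca. Markers of several other retinal cells stood high beside them. Those of Mueller glia were divided, and those of astrocytes were not high. Cone genes summed to 1663 CPM in this library, against 10.1 to 50.9 CPM in ONH replicates 1 to 6. RPE genes summed to 3420 CPM, against 206 to 1083 CPM, though Pmel and Best1 lay within the range of those replicates. Mueller glia genes summed to 3812 CPM in the bridging ONH library, against 4515 to 7283 CPM in ONH replicates 1 to 6. Of them Rlbp1 (622 CPM), Glul (921 CPM), Car14 (187 CPM) and Abca8a (33.5 CPM) lay above all those replicates. Vim (1360 CPM), Dkk3 (509 CPM) and Kcnj10 (139 CPM) lay below all of them, and Crym (40.9 CPM) lay within their range. Astrocyte genes summed to 5962 CPM, against 15437 to 31263 CPM, and were thus lowest there among the ONH libraries. Ganglion cell genes summed to 858 to 4897 CPM in retina IP, against 206 CPM in the bridging ONH library and 20.3 to 58.1 CPM in ONH replicates 1 to 6. In this comparison all 12 rod genes, all 7 cone genes tested and 7 of 8 RPE genes were called lower in retina, against 21.1% of all genes tested. Of the ganglion cell genes 9 of 10 were called higher, against 12.7% of all genes tested. Their part in the result was not tested.

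The other bipolar genes were divided in the same library. Gnb3 reached 311.9 CPM in the bridging ONH library, against 1.24 to 14.2 CPM in ONH replicates 1 to 6, and was called lower in retina (-2.69, edgeR adjusted p = 0.00190). Neurod4, a basic helix-loop-helix factor, stood at 43.0 CPM there, against 0 to 3.26 CPM in ONH replicates 1 to 6. Other genes of the lists were lower there than on average in retina IP. Isl1 averaged 134.4 CPM and Car10 70.3 CPM in retina IP, against 37.9 and 18.8 CPM in the bridging ONH library. Rgs7, a regulator that speeds the shut-off of Go, averaged 90.3 ± 40.1 CPM in retina IP (SD, n = 6), against 11.5 CPM in the bridging ONH library, and it was called higher in retina (3.47, edgeR adjusted p = 0.000434). Of the 8 cascade genes tested 1 was called higher and 2 lower, of the 12 transcription factors 1 and 2, and of the 12 receptor, calcium-binding and adhesion genes 1 and 2. Among all genes tested 12.7% were called higher and 21.1% lower.

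**Figure D3:**
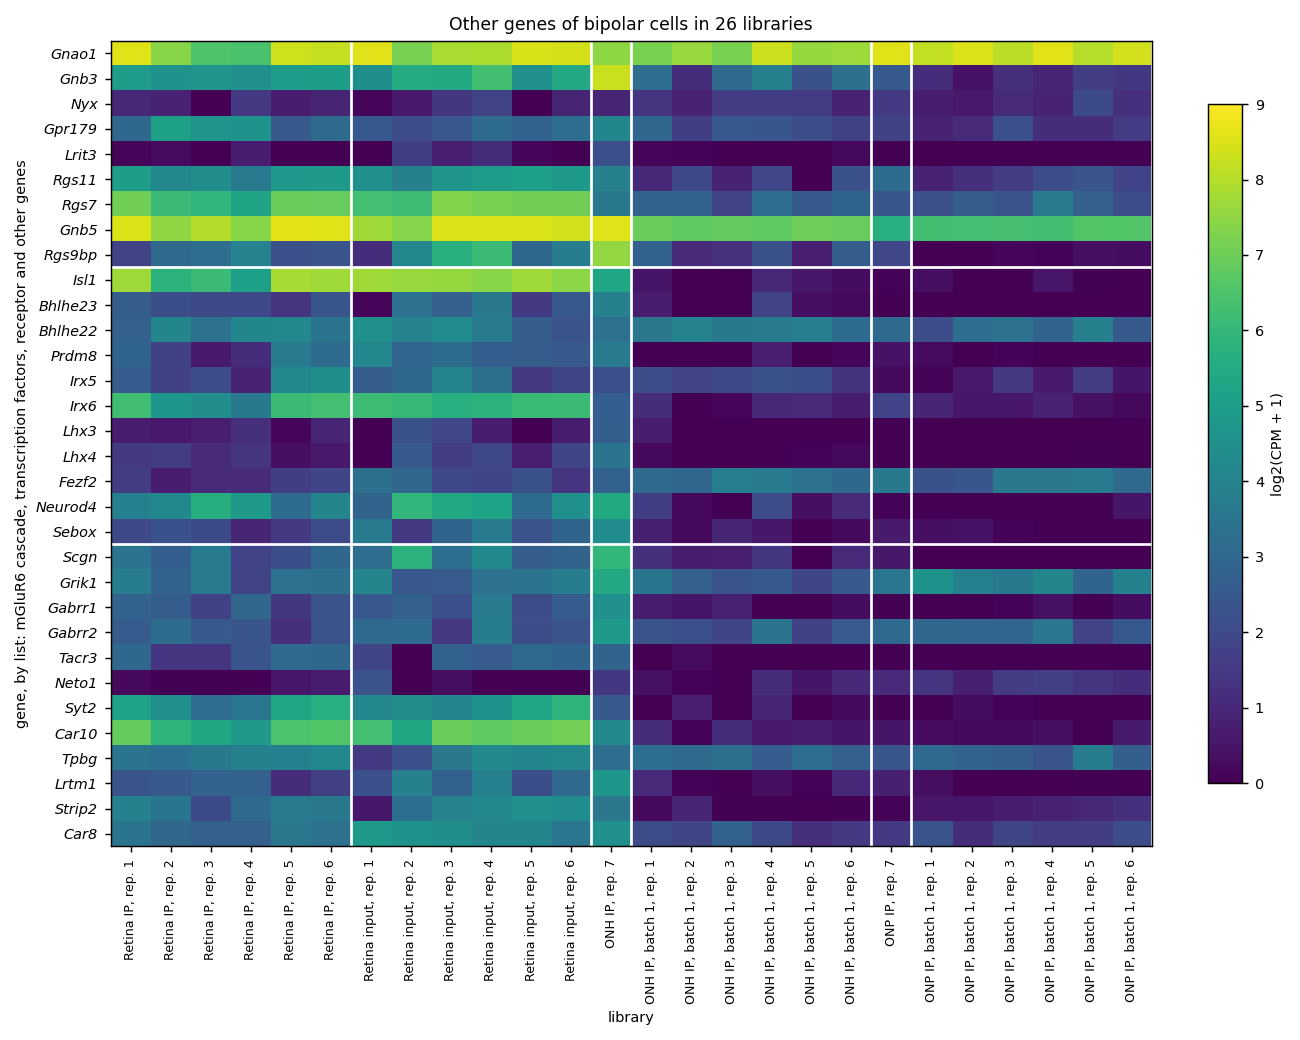
Other genes of bipolar cells as log2(CPM + 1), 1 column per library and 1 row per gene, with white lines between groups of libraries and between lists. Gnb3, Rgs9bp and Scgn are bright in the bridging ONH library (ONH IP, rep. 7), where Rgs7, Isl1, Irx6 and Car10 are darker than in most retinal libraries.

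The third comparison set retina IP against ONP IP. In it edgeR called 3 of the 8 members higher in retina and 0 lower, where 12.9% of 16355 genes were called higher and 19.9% lower. The 3 called passed the low-count filter only through the retina IP libraries, the group where they were high. The share of all genes is therefore not a like background for them. Cabp5 had a log2 fold change of 3.54 (SE 1.28, adjusted p = 0.0394), Pcp2 one of 3.47 (SE 1.19, adjusted p = 0.0300) and Gng13 one of 3.44 (SE 0.833, adjusted p = 0.00360). Trpm1 (2.54, adjusted p = 0.0645), Otx2 (2.08, adjusted p = 0.172), Grm6 (1.72, adjusted p = 0.224), Prkca (-0.25, adjusted p = 0.679) and Vsx1 (-1.51, adjusted p = 0.435) did not pass. The median over the 8 was 2.31, against -0.10 over all genes tested. This comparison shares the retina IP libraries and the batch term with the one before, so the bridging ONH library enters it as well.

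Set against batch 1 ONP, every retina IP library was higher for 6 members, Grm6, Trpm1, Pcp2, Cabp5, Gng13 and Otx2, against 17.3% of genes tested. Of these, Grm6, Pcp2, Cabp5 and Gng13 passed the low-count filter only through retina IP. With the 6 batch 1 ONP libraries at 0 counts, 3 counts over the group were taken as the floor. Against it the retina IP mean was at least 267.9-fold higher for Cabp5, 135.8-fold for Gng13 and 107.7-fold for Grm6. Batch and region cannot be told apart in these ratios. The bridging ONP library, of the same batch as retina IP, held 0.793, 0.288 and 0.865 CPM of these genes in that order. Their retina IP means were 7.46, 3.78 and 3.00 CPM. Without both bridging libraries 7 members were called higher, the exception being Vsx1, as were 29.6% of genes tested. In batch 2 alone, Pcp2 (5.29, edgeR adjusted p = 0.00612) and Gng13 (3.87, edgeR adjusted p = 0.0355) were called higher than in the single ONP library, as were 4.23% of genes tested. Without the bridging ONP library no member was called higher, where 3.49% of genes tested were, with edgeR adjusted p of 0.671 for Pcp2, 0.235 for Cabp5 and 0.165 for Gng13. Without the bridging ONH library Pcp2 (adjusted p = 0.0149) and Trpm1 (adjusted p = 0.0451) were called higher, as were 11.7% of genes tested, and Cabp5 (adjusted p = 0.250) and Gng13 (adjusted p = 0.0528) were not. The call of Cabp5 ended also without ONP replicate 3 (adjusted p = 0.0502) or retina IP replicate 1 (adjusted p = 0.0579). Trpm1 was called without ONP replicate 6 (adjusted p = 0.00963) or retina IP replicate 3 (adjusted p = 0.0393), and Otx2 without ONP replicate 6 (adjusted p = 0.0333).

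Of the bipolar transcription factors, 6 of 12 were called higher in retina than in ONP and 1 lower, where 12.9% of all genes tested were called higher and 19.9% lower. Isl1 rose by 5.86 (edgeR adjusted p = 0.00924), Neurod4 by 4.99 (adjusted p = 0.0316) and Irx6 by 3.89 (adjusted p = 0.00776), all on the log2 scale. Of the 12 receptor, calcium-binding and adhesion genes, 4 were higher and 3 lower. Syt2, a synaptotagmin of cone bipolar and other neurons, rose by 6.85 (adjusted p = 0.00367) and Car10 by 5.12 (adjusted p = 0.00107). Of the 8 cascade genes tested, 1 was higher and 0 lower: Rgs7 rose by 3.69 (adjusted p = 0.000344). The widely expressed Gnao1 (-0.55) and Gnb5, the beta subunit partner of Rgs7 (1.12, adjusted p = 0.0702), did not pass. Ganglion cell genes were called higher in 10 of 10 cases in this comparison. The median of the 12 rod genes was -0.51.

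The fourth comparison set ONH IP against ONP IP, 2 regions of the nerve in which bipolar cells are not found. Trpm1 and Otx2 were higher in the nerve head, and this held within batch 1. Over both batches edgeR called 6 members higher in ONH and 0 lower, where 4.43% of 16355 genes were called higher and 3.04% lower. Otx2 had a log2 fold change of 5.74 (SE 0.801, adjusted p = 0.000346) and Trpm1 one of 4.35 (SE 0.636, adjusted p = 0.000504). Gng13 had one of 5.20 (SE 0.775, adjusted p = 0.000590), Cabp5 one of 6.59 (SE 1.06, adjusted p = 0.00115), Pcp2 one of 4.64 (SE 1.04, adjusted p = 0.0111) and Grm6 one of 4.93 (SE 1.12, adjusted p = 0.0121). Vsx1 (0.21, adjusted p = 0.916) and Prkca (-0.16, adjusted p = 0.760) did not pass. The median over the 8 was 4.78, against 0.02 over all genes tested.

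Trpm1 averaged 11.1 ± 3.87 CPM in ONH and 0.695 ± 0.844 CPM in ONP in batch 1 (SD, n = 6 each), and Otx2 averaged 5.48 ± 3.88 CPM in ONH and 0.156 ± 0.255 CPM in ONP. For both genes every ONH library was above every ONP library of batch 1, against 3.01% of genes tested. Within batch 1 alone, Trpm1 had a log2 fold change of 4.01 (SE 0.631, edgeR adjusted p = 0.00266) and Otx2 one of 5.21 (SE 0.902, edgeR adjusted p = 0.00434), where 8.57% of genes tested were called higher. Prkca was tested there and did not pass (-0.38, adjusted p = 0.161), and the other 5 members had too few counts to be tested. Grm6 and Pcp2 lost their calls without the bridging ONH library (edgeR adjusted p = 0.0911 and 0.0946), and likewise without the bridging ONP library, while the calls of Trpm1, Otx2, Cabp5 and Gng13 remained. Cabp5, Gng13, Grm6 and Pcp2 passed the low-count filter only through the retina IP libraries, which are not part of this contrast. Over ONH replicates 1 to 6 Cabp5 had 138 counts and Gng13 15, and both had 0 in ONP replicates 1 to 6. Of all genes tested, 3.97% were called higher without the bridging ONH library and 4.06% without the bridging ONP library.

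Trpm1 and Otx2 stood beside genes of the pigment epithelium in ONH. The 8 RPE genes summed to 206 to 1083 CPM in ONH and to 41.4 to 140.5 CPM in ONP in batch 1, and over both batches 7 of 8 were called higher in ONH, with a median log2 fold change of 5.05. Rgr, an RPE opsin, averaged 229.9 ± 184.3 CPM in ONH and 6.53 ± 10.6 CPM in ONP (SD, n = 6 each), and Ttr, transthyretin, 73.6 ± 71.6 CPM in ONH and 1.86 ± 3.12 CPM in ONP. Tyr, the tyrosinase of pigment cells, stood at 0.0703 to 9.80 CPM in ONH replicates 1 to 6 and at 0 in all 7 ONP libraries. Rod genes summed to 104 to 865 CPM in ONH and to 30.5 to 106.7 CPM in ONP, with 12 of 12 called higher in ONH over both batches. Among all genes tested 4.43% were called higher there. In the same 6 ONH libraries Grm6 had 18 counts in all, Pcp2 17 and Gng13 15, against 1327 for Trpm1 and 675 for Otx2. In ONP replicates 1 to 6 Trpm1 had 68 counts and Otx2 14. What part RPE and rod RNA have in these levels was not tested.

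**Figure D4:**
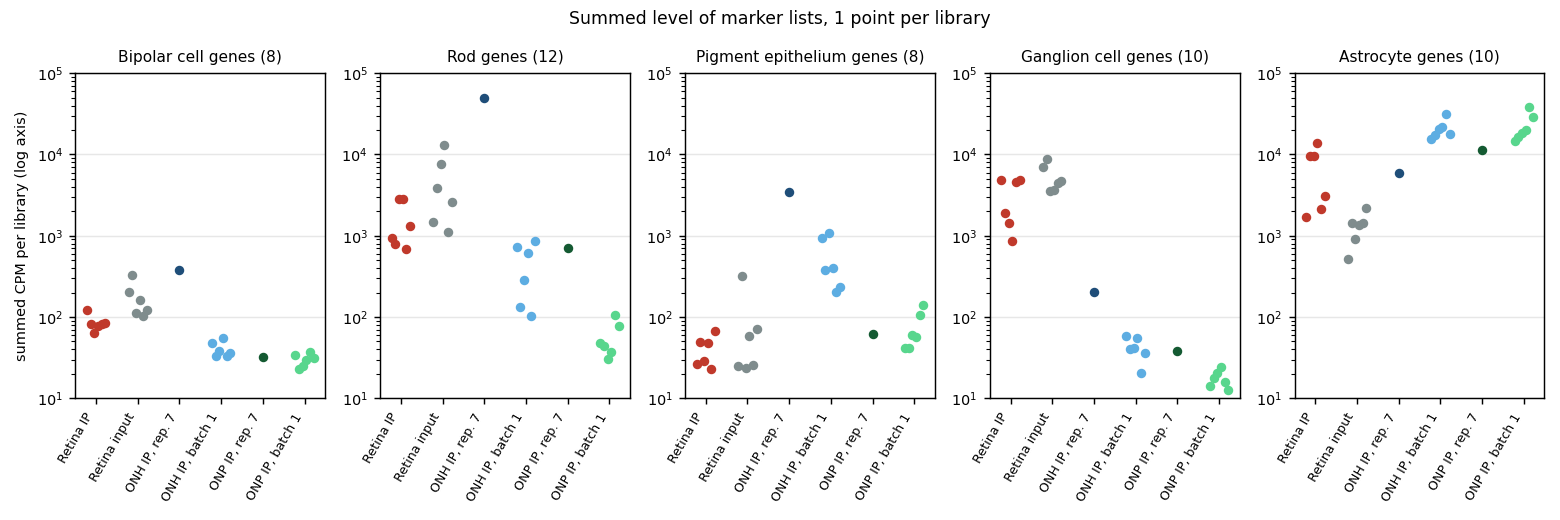
Summed CPM of 5 marker lists in each library on a log axis, 1 point per library. In batch 1 the ONH libraries hold 206 to 1083 CPM of pigment epithelium genes, above the ONP libraries at 41.4 to 140.5 CPM; rod genes reach 50181 CPM in the bridging ONH library (ONH IP, rep. 7).

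Of the other bipolar genes, 2 of 8 cascade genes, 4 of 12 transcription factors and 4 of 12 receptor, calcium-binding and adhesion genes were called higher in ONH than in ONP over both batches, against 4.43% of all genes tested. Of these lists 0 were called lower, against 3.04% of all genes tested. At an unadjusted p under 0.05 there were 5, 8 and 7 of them, against 23.3% of all genes tested. Gnb3 rose by 2.92 (edgeR adjusted p = 0.00179), at 7.35 ± 4.51 CPM in ONH and 1.30 ± 0.624 CPM in ONP in batch 1 (SD, n = 6 each). Irx6 (0.51), Rgs7 (0.22) and Car8 (0.61) did not pass.

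The genes whose pattern was most like that of the 8 depended on the libraries. By the Pearson correlation of log2(CPM + 1) with the mean of the members, among genes averaging at least 10 CPM, the 12 retinal libraries gave Rps6kb1 (0.88), Cdkl3 (0.87), Cnga1 (0.87), March2 (0.87) and Platr17 (0.86) out of 9215 genes. Over all 26 libraries they were Gnb3 (0.97), Platr17 (0.96), Opn1mw (0.96), Neurod1 (0.96) and Unc119 (0.95) out of 9784. Gnb3 is a cascade gene of the same cells, while Cnga1 is a rod gene and Opn1mw a cone opsin. The libraries share region, batch and, over all 26, the high retinal RNA of the bridging ONH library.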

How the data were processed

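RNA was measured by poly(A) RNA-seq with an ultra-low input kit, per the labels' protocols. The submitters' processing notes name Salmon 1.6.0 and the build mm10. The authors deposited estimated counts per gene, written as whole numbers, for 54532 genes, of which 54409 matched a symbol in the GENCODE M21 annotation. Strandedness is not given in the sources used here.

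Libraries were grouped and assigned to batches 1 and 2 (12 and 14 libraries) by the labels. Levels are CPM with TMM library sizes over 26 libraries. Tests across genes used edgeR 4.0.16 in R 4.3.3: TMM, filterByExpr (minimum count 10, total 15), quasi-likelihood F test, Benjamini-Hochberg adjusted p under 0.05 over all genes tested, with SE from the estimate and F. Retina IP against input used 12 libraries and no covariate. The other comparisons used 20 IP libraries and a batch term, following the series' design. DESeq2 1.42.0 and other settings were alternatives. The tests were tested on simulated data. Figures were drawn with matplotlib 3.10.9.

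The members and lists were chosen with earlier results of these data known. Named were all members, up to 4 genes per other list with the highest retina input mean, genes of the mGluR6 cascade, and the 5 most alike in pattern; Tyr, Rgs9bp, Pet100 and Chtf18 were named after their values were seen. Some genes that met this rule are not reported here. Same-numbered ONH and ONP libraries of batch 1 deviated together (r 0.12 to 0.54 over 6 pairs, each best with its own number), so their numbers were taken to pair them. The main tests and that of batch 1 alone held no term for these pairs. Only the replicate block, run as an alternative, used the numbers.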

Additional observations from a re-analysis of the deposited data

Results flagged for a closer look

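Each member was looked at within each of the 4 groups, 32 sets in all, for a library far from the rest. A library stood out in 14 sets, by the gap to its nearest neighbour over the range of the set. The cut-off gives 1 in 20 by chance for normal values only. These CPM are skewed, hold many 0 values, and the sets share libraries, so the 14 cannot be set against that rate. In 8 of them it was the bridging ONH library (ONH replicate 7). It held 7.04 CPM of Vsx1, where the next ONH library held 1.06 CPM. It held 29.6 CPM of Grm6 (next 0.740 CPM), 63.5 CPM of Trpm1 (next 14.2 CPM) and 35.3 CPM of Pcp2 (next 0.431 CPM). For Prkca it held 66.8 CPM (next 31.4 CPM), for Cabp5 52.7 CPM (next 3.67 CPM), for Gng13 14.6 CPM (next 0.335 CPM) and for Otx2 111.7 CPM (next 11.6 CPM).

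In 4 sets it was the bridging ONP library (ONP replicate 7), at levels of few counts. It held 0.865 CPM of Grm6 (12 counts), 0.793 CPM of Cabp5 (11 counts) and 0.288 CPM each of Pcp2 and Gng13 (4 counts each). The other ONP libraries held 0 CPM of Grm6, Cabp5 and Gng13 and at most 0.0748 CPM of Pcp2. With all others at 0, any count in a single library meets the rule. In the other 2 sets a batch 1 ONP library was far above its group. ONP replicate 1 held 2.65 CPM of Vsx1, where the next held 0.648 CPM, and ONP replicate 6 held 2.34 CPM of Trpm1, where the next held 0.749 CPM. No library stood out in this way in retina IP or retina input, where the high Pcp2 and Gng13 values were shared by input replicates 1 and 2.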

How the results depend on the processing

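Counts in brackets are all genes called the same way, of 16355 tested unless stated. Retina IP against ONH gave 4 members lower (3452), but 3 with no low-count filter (3270 of 31335) and 2 with DESeq2 (3461). With only the groups compared it gave 2 (1632 of 15754), Otx2 and Trpm1, of which 1 is among the 4. With no batch term it gave 0 (4594). A replicate block and no batch term gave 0 lower (4853) and 5 higher (4601). So did the fit without both bridging libraries, chosen after seeing the data (4716 and 4704 of 16051). The block ties retina IP to nerve libraries of the same number, which did not deviate together (r -0.10 to 0.16). Signs that turned there were, with no batch term, Pcp2 0.97, Prkca 0.61 and Gng13 0.79. With the replicate block they were Vsx1 1.36, Grm6 5.43, Pcp2 6.04, Prkca 0.82, Cabp5 3.56, Gng13 4.99 and Otx2 0.19. Without both bridging libraries they were Vsx1 1.27, Grm6 4.34, Trpm1 0.076, Pcp2 6.10, Prkca 0.99, Cabp5 2.72, Gng13 4.83 and Otx2 0.11. Retina IP against ONP gave 3 higher (2116), but 6 with no batch term (4225). It gave 7 with the replicate block (4808) or without both bridging libraries (4747 of 16051). Vsx1 and Prkca turned there to 1.02 and 0.61 (no batch term), 0.90 and 0.64 (only the groups compared), 1.04 and 0.77 (batch 2 alone), 2.18 and 0.66 (replicate block) and 1.05 and 0.61 (without both bridging libraries). ONH against ONP gave 6 higher (725), but 2 in batch 1 alone (1264 of 14753) or with only the groups compared (1133 of 14799). In those fits every member but Trpm1, Otx2 and Prkca had too few counts to be tested. The replicate block kept all 6 calls of ONH against ONP (699), and Vsx1 turned to -0.23 without both bridging libraries. The causes were not tested.

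Retina IP against retina input gave 0 members lower (0 of 15181 genes), but 2 with no low-count filter (41 of 27961) or DESeq2 (1103 of 15181). Its replicate block left Pcp2 at -1.91 and Gng13 at -1.98, both uncalled. Same-numbered IP and input libraries correlated at -0.16 to 0.29. Retina IP replicates 1, 2, 4 and 5 correlated best with the input of their own number, replicate 3 with input 2 and replicate 6 with input 5. Their numbers were not taken as pairs in the main test, but a pairing cannot be set aside. Vsx1 turned to -0.0024 with other size factors (RLE), -0.0022 with DESeq2, -0.0040 with all 26 libraries and -0.25 without inputs 1 and 2.

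Leaving out 1 library at a time gave 0 to 2 members lower and 0 higher for retina IP against input, where 0 to 40 of all genes were lower. Against ONH it gave 0 to 5 lower and 0 higher, with 2262 to 3648 of all genes lower. Against ONP it gave 0 to 5 higher and 0 lower, with 567 to 2436 of all genes higher. For ONH against ONP it gave 4 to 6 higher and 0 lower, with 409 to 869 of all genes higher. Genes tested numbered 15225 to 15561 against input and 16145 to 16661 in the other comparisons. Signs turned within these ranges of log2 fold change: against input, Vsx1 -0.16 to 0.64 and Grm6 -0.52 to 0.054; against ONH, Vsx1 -2.58 to 1.11, Trpm1 -2.48 to 0.14, Pcp2 -1.81 to 2.49 and Prkca -0.64 to 1.01; against ONP, Vsx1 -2.80 to 0.88 and Prkca -1.02 to 0.63; for ONH against ONP, Vsx1 -0.23 to 1.93. Depth limits Grm6, Pcp2 and Gng13 most in the nerve, with 18, 17 and 15 counts over the 6 batch 1 ONH libraries.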
